A study of Mus musculus with 8 samples.

Results

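The presynaptic release machinery was followed through 42 genes that encode SNARE proteins, their regulators, priming factors, active-zone scaffolds, synapsins, SV2 proteins and proteins of vesicle endocytosis. They were chosen by gene symbol for these roles, with synaptotagmins and synaptophysins left out, and all 42 were found among the 39017 genes of the count table. All 42 passed the filter on low counts, as did 17654 genes in all.

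The RNA came from translating ribosome affinity purification (TRAP) of mouse hippocampus, in which ribosomes carrying an EGFP-tagged L10 protein are pulled down with the RNA bound to them. The mice were CCK cre+ and L10-EGFP+, so the tag marks cells in which the Cck promoter has driven Cre, and these can be pyramidal cells as well as interneurons. Conditional knockout (cKO) libraries, 5 in number, are from such mice that were also SMARCA3 fl/fl. SMARCA3 is a chromatin remodeller encoded by Hltf. Wild-type (WT) libraries, 3 in number, are from littermates lacking the fl/fl genotype, and whether these carried a single floxed copy is not given in the sources used here. Every library pooled 4 hippocampi. Age, sex and the relation between pools are not given either, so p-values measure only the spread between these pools.

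At a nerve terminal, the vesicle protein synaptobrevin joins syntaxin and SNAP-25 of the plasma membrane in the SNARE bundle that drives fusion. Munc13 and Rab3 proteins prepare vesicles for fusion, complexins act on the assembled bundle, and NSF with its SNAP adaptors takes it apart again. RIM, Bassoon, Piccolo, ELKS and liprin-alpha proteins build the active zone, synapsins hold the vesicle reserve, and dynamin, amphiphysin, synaptojanin and endophilin retrieve membrane after release.

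Total counts ran from 31760155 to 61823651 per library. Hltf was lower in 4 of the 5 cKO libraries than in any WT library: levels were 13.7, 8.39 and 9.87 CPM (edgeR's library-scaled count unit, with TMM totals) in WT 1 to 3 and 5.10, 4.49, 4.21 and 2.83 CPM in cKO 1 to 4. The library labelled cKO 5 had 11.4 CPM of Hltf, inside the WT range, so it goes against its label. The same library and cKO 4 also lacked counts for 69 and 24 genes that average at least 1 CPM elsewhere, against 0 to 13 such genes in the other libraries. For members whose estimate was at least 0.1 in size on the log2 scale and moved by over 1.5 times without these libraries, both values are given.

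No member passed the test between cKO and WT. By edgeR's quasi-likelihood test with Benjamini-Hochberg adjustment over all genes, 0 of 42 were called in either direction, with 0% of all genes called, and the smallest adjusted p of a member was 0.619. At an unadjusted p under 0.05 there were again 0 members higher and 0 lower, where 5.02% of all genes were higher and 3.70% lower. Groups without overlap between the 3 WT and 5 cKO libraries were found for 0 members, against 3.38% of all genes higher in cKO and 3.82% lower. DESeq2 called 0 members as well, where 0.639% of the 10801 genes to which it gave an adjusted p passed as higher and 0.361% as lower. By limma-voom the members' count was 0, where 0.0170% of all genes passed as higher and 0.00566% as lower. limma-voom left 1 member, Ppfia3, at an unadjusted p under 0.05 (0.0456), and DESeq2 left 0. Hltf itself was not called by any of these tools, with a log2 fold change of -0.93 (SE 0.39) by edgeR. Its adjusted p was 0.558 by edgeR, 0.279 by DESeq2 and 0.131 by limma-voom. Without the library labelled cKO 5, the estimate for Hltf was -1.36 (edgeR adjusted p 0.359).

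The members were more abundant than most genes, so abundant genes are the closer background. Of 9151 genes with a mean of at least 10 CPM over all 8 libraries, which include 41 of the members, 6.60% reached an unadjusted p under 0.05 in the higher direction and 5.53% in the lower. Groups did not overlap for 4.11% of them in the higher and 5.13% in the lower direction. The median log2 fold change of the members was 0.03, beside 0.02 over all genes tested. It was above 0 for 24 of 42 members (57.1%), compared with 53.0% of all genes and 51.1% of the abundant ones.

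How large a difference these libraries leave possible can be read from the 95% intervals of the edgeR fit. The interval lay within 1.5-fold in either direction for 36 of the 42 members and for 32.6% of all genes tested. It lay within 1.25-fold for 13 members and for 5.47% of all genes tested. Shares among abundant genes, the closer background, are not given here, so these contrasts do not show the members to be unusually stable. Bin1, Ppfia3, Rims3, Sncb, Syn3 and Unc13c had intervals that reached beyond 1.5-fold, and those of Rims3 and Syn3 reached beyond 2-fold. Synj1, the phosphatase synaptojanin-1, had an interval of 0.888 to 1.12-fold. For 23 members the log2 fold change was under 0.1 in size, from -0.09 to 0.10 as rounded.

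**Figure D1:**
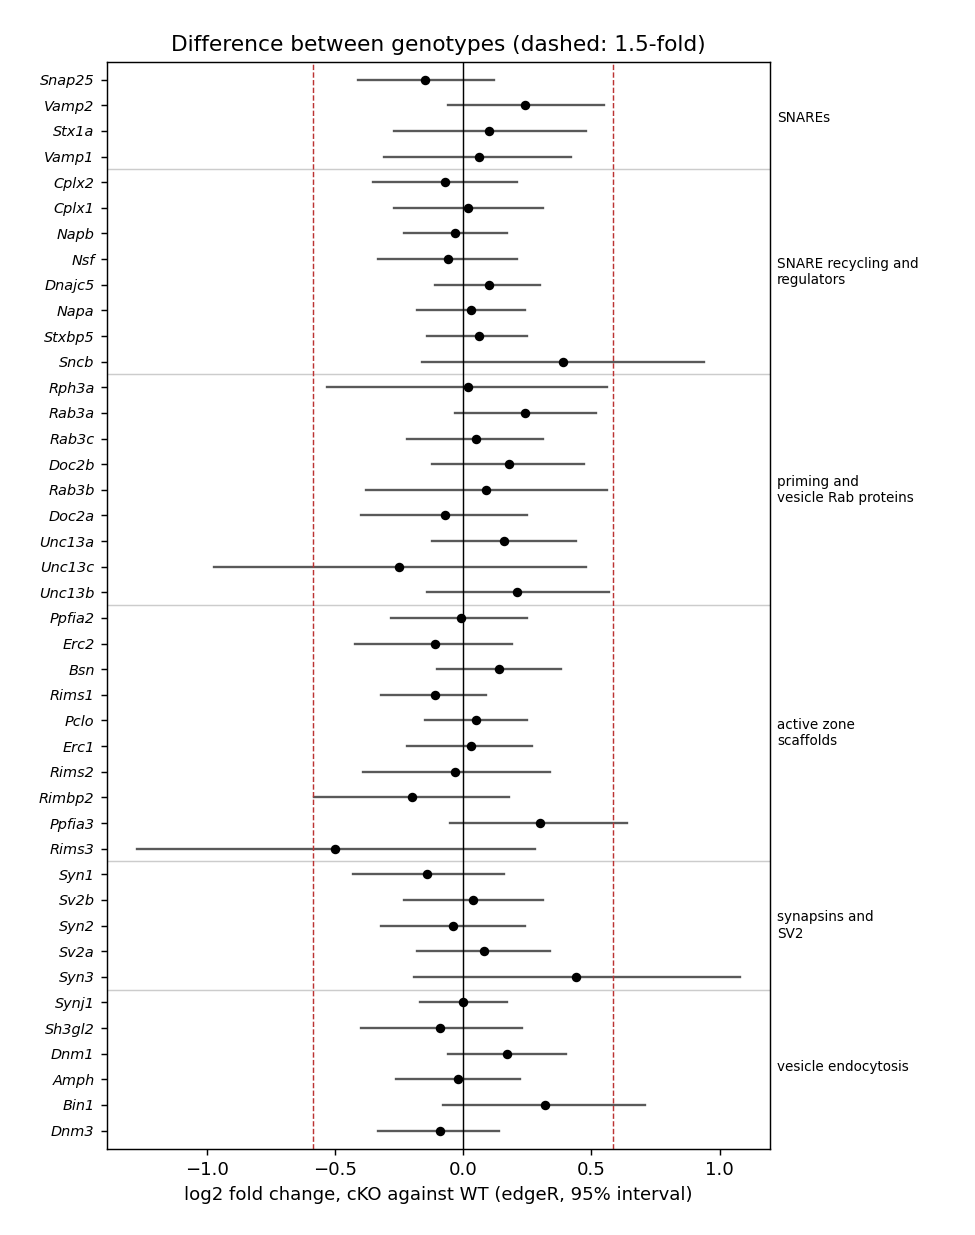
Log2 fold change of cKO against WT (x axis) for each of the 42 genes, grouped by role: points are edgeR estimates, bars are 95% intervals, and dashed lines mark 1.5-fold. Every bar crosses 0, and the bars of 36 genes end inside the dashed lines.

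Levels within WT differed far more between genes than between libraries. Genes are compared here by a length-scaled level, the count per base of merged exons, scaled to the same total in each library. Snap25 stood first at 5589, 6214 and 7979 in WT 1 to 3, followed by Syn1 at 1730, 1813 and 2291 and Vamp2 at 1107, 1253 and 1423. These leading WT ranges did not overlap with each other. Cplx2, Cplx1, Napb, Synj1, Nsf and Sh3gl2 came next, with means from 651 down to 405, and each overlapped its neighbour in this order. The lowest levels were those of Unc13c (2.74 ± 0.837, SD, n = 3), Syn3 (2.73 ± 0.759) and Unc13b (2.66 ± 0.397), whose ranges overlapped. That place of Unc13b depends on its merged exons of 22746 bases. Its WT mean of 25.9 CPM was above those of Unc13c (10.2 CPM) and Syn3 (14.4 CPM). In WT, 20 members lay at or above the 90th percentile of the genes tested and 5 lay below the 50th.

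**Figure D2:**
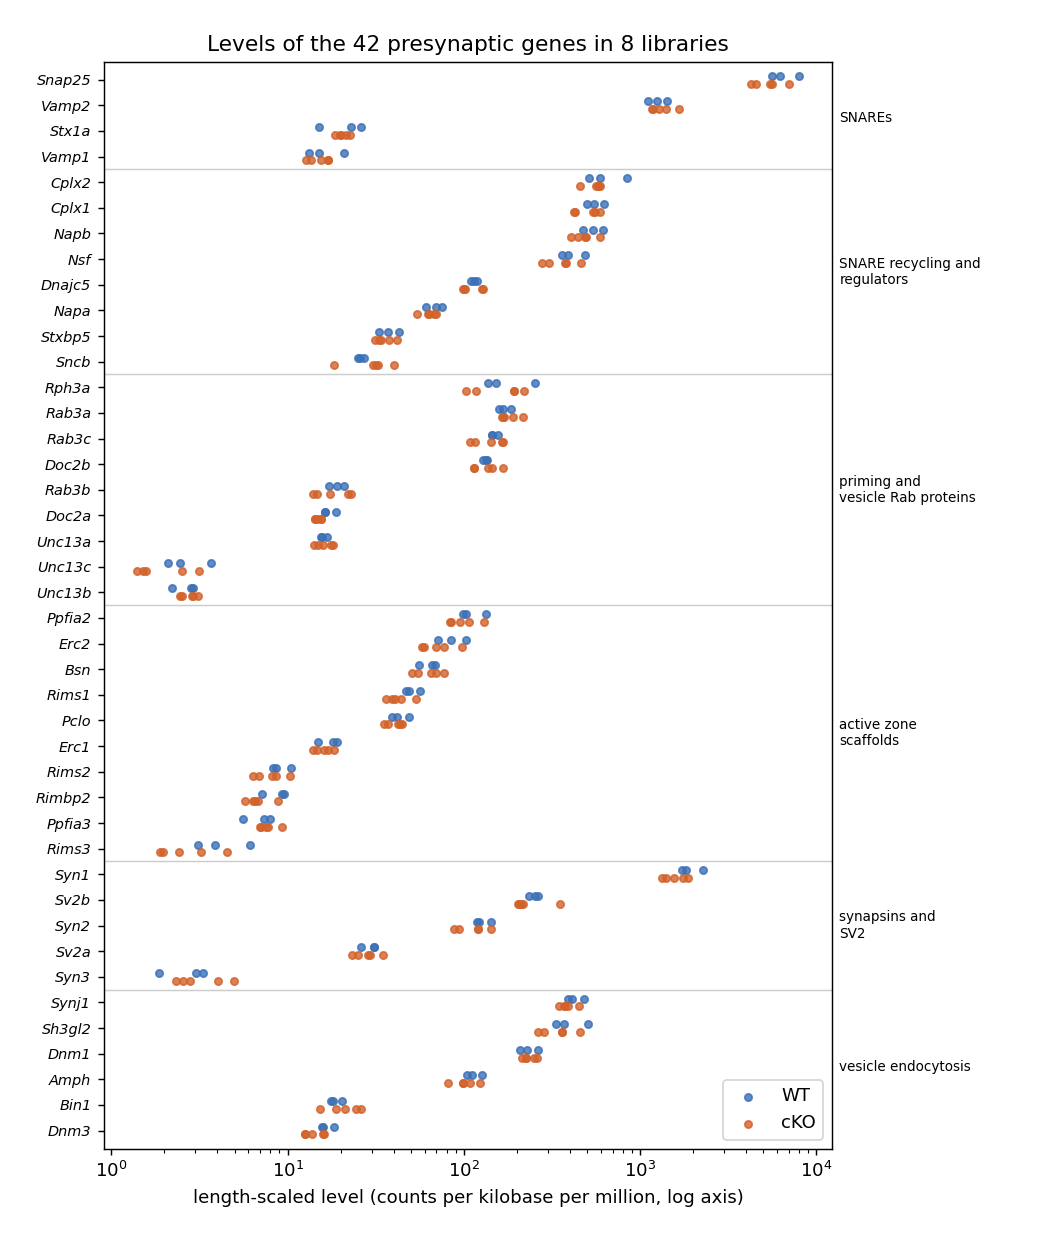
Length-scaled level (log axis) of each gene in the 3 WT and 5 cKO libraries, grouped by role. In WT, Snap25, Syn1 and Vamp2 lie between 1107 and 7979, and Rimbp2, Ppfia3, Rims3, Unc13b, Unc13c and Syn3 lie at or below 9.58.

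Together the 42 genes took 3.59 to 4.32% of the counts of a WT library, 3.90 to 4.04% in cKO 1 to 3, and 3.20 and 3.24% in cKO 4 and the library labelled cKO 5. Snap25 alone made up 43.2 to 50.9% of the members' counts, and the remaining 41 genes together held 1.80 to 2.12% of all counts.

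Among the SNAREs, Snap25 encodes the plasma membrane SNARE SNAP-25 (ENSMUSG00000027273, mm10 chromosome 2, 136713453 to 136782428). It had 17253, 18584 and 21583 CPM in WT 1 to 3, and 19589, 18993, 18548, 14441 and 14754 CPM in cKO 1 to 5. cKO 4 and 5 lay below every WT library, while cKO 1 to 3 lay inside the WT range. Snap25 had a log2 fold change of -0.15 (SE 0.12; edgeR adjusted p 0.771), and of -0.01 without cKO 4 and 5.

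Vamp2 encodes synaptobrevin-2, the main vesicle SNARE of forebrain terminals (ENSMUSG00000020894, chromosome 11, 69088490 to 69092384). Vamp2 had 1916, 2101 and 2159 CPM in WT 1 to 3, and 1828, 2292, 2389, 2653 and 3023 CPM in cKO 1 to 5. Of the cKO libraries 4 lay above all WT libraries, and cKO 1 lay below all of them. The estimate for Vamp2 was 0.24 on the log2 scale (SE 0.14; edgeR adjusted p 0.653), 0.33 without cKO 1 and 0.07 without cKO 4 and 5. Vamp1, its paralog, ranged from 61.4 to 84.4 CPM in WT and from 56.8 to 88.1 CPM in cKO. Stx1a, which encodes syntaxin-1A, had 18.3, 27.0 and 27.6 CPM in WT and 23.6 to 30.8 CPM in cKO (log2 fold change 0.10, SE 0.17).

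Of the SNARE regulators, Sncb, which encodes beta-synuclein, had the smallest p (ENSMUSG00000034891, chromosome 13, 54758860 to 54766595). Sncb had 26.6, 23.8 and 22.1 CPM in WT 1 to 3, and 16.1, 34.6, 33.8, 32.5 and 41.4 CPM in cKO 1 to 5. As with Vamp2, cKO 1 lay below every WT library and the other 4 cKO libraries lay above. The estimate for Sncb was 0.39 on the log2 scale (SE 0.25; edgeR adjusted p 0.702). Without cKO 1 it was 0.56, with an edgeR adjusted p of 0.239, the smallest of any member over all 20 other settings tried. It was 0.22 without cKO 4 and 5 and 0.21 with a correction for GC content and length.

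Nsf, the ATPase that dismantles SNARE complexes, averaged 1478 ± 127 CPM in WT and 1421 ± 214 CPM in cKO (SD; n = 3 and 5, as for the means that follow). Napb, its main SNAP adaptor here, averaged 1648 ± 103 CPM in WT and 1616 ± 146 CPM in cKO. Napa, the alpha-SNAP gene, averaged 112 ± 6.24 and 114 ± 7.65 CPM. The complexin genes Cplx1 and Cplx2 also overlapped between genotypes. Cplx1 averaged 523 ± 25.1 CPM in WT and 531 ± 94.8 CPM in cKO, and Cplx2 1366 ± 265 and 1300 ± 138 CPM. Stxbp5, which encodes the syntaxin-binding protein tomosyn, ranged from 241 to 283 CPM in WT and from 263 to 298 CPM in cKO. Dnajc5, which encodes the vesicle chaperone cysteine string protein, ranged from 330 to 349 CPM in WT and from 345 to 426 CPM in cKO.

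In the priming and Rab group, 7 of 9 estimates lay above 0, with a median of 0.09. Rab3a encodes the main Rab GTPase of synaptic vesicles (ENSMUSG00000031840, chromosome 8, 70754679 to 70758677) and had the smallest edgeR p of all members. Rab3a had 160, 165 and 164 CPM in WT 1 to 3, and 152, 187, 184, 211 and 230 CPM in cKO 1 to 5. The WT libraries lay close together, cKO 1 lay below them and the other 4 cKO libraries above. For Rab3a the log2 fold change was 0.24 (SE 0.13; edgeR adjusted p 0.619), with an exact permutation p, two-sided, of 0.161. It was 0.32 without cKO 1 and 0.09 without cKO 4 and 5. Rab3c ranged from 749 to 787 CPM in WT and from 663 to 955 CPM in cKO. Rab3b ranged from 26.8 to 30.4 CPM in WT and from 21.0 to 39.4 CPM in cKO, so both had cKO libraries above and below WT.

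The Munc13 genes, whose products prime vesicles, did not share a sign. Unc13a (Munc13-1) ranged from 78.8 to 95.6 CPM in WT and from 82.0 to 111 CPM in cKO (log2 fold change 0.16, SE 0.13; 0.02 without cKO 4 and 5). Unc13b (Munc13-2) ranged from 22.7 to 29.2 CPM in WT and from 23.4 to 33.7 CPM in cKO (0.21, SE 0.16; 0.10 without cKO 4 and 5). Unc13c (Munc13-3) was the member with the fewest counts, with 8.35, 9.48 and 12.9 CPM in WT and a mean of 8.64 ± 3.70 CPM in cKO (-0.25, SE 0.33, interval -0.97 to 0.48; -0.05 without cKO 4 and 5).

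Doc2b, which encodes a calcium sensor of release, had 255, 260 and 233 CPM in WT, and 247, 254, 244, 362 and 302 CPM in cKO 1 to 5. Its values outside the WT range were those of cKO 4 and 5, and the log2 fold change was 0.18 (SE 0.14), or -0.01 without them. Doc2a ranged from 18.2 to 23.3 CPM in WT and from 17.7 to 21.7 CPM in cKO. Exons of Ino80e on the opposite strand cover 39.4% of the merged exons of Doc2a, and since the strandedness of counting is not given in the sources used here, the Doc2a count is uncertain. Rph3a, which encodes the Rab3 effector rabphilin, had 291, 311 and 471 CPM in WT and ranged from 237 to 494 CPM in cKO.

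**Figure D3:**
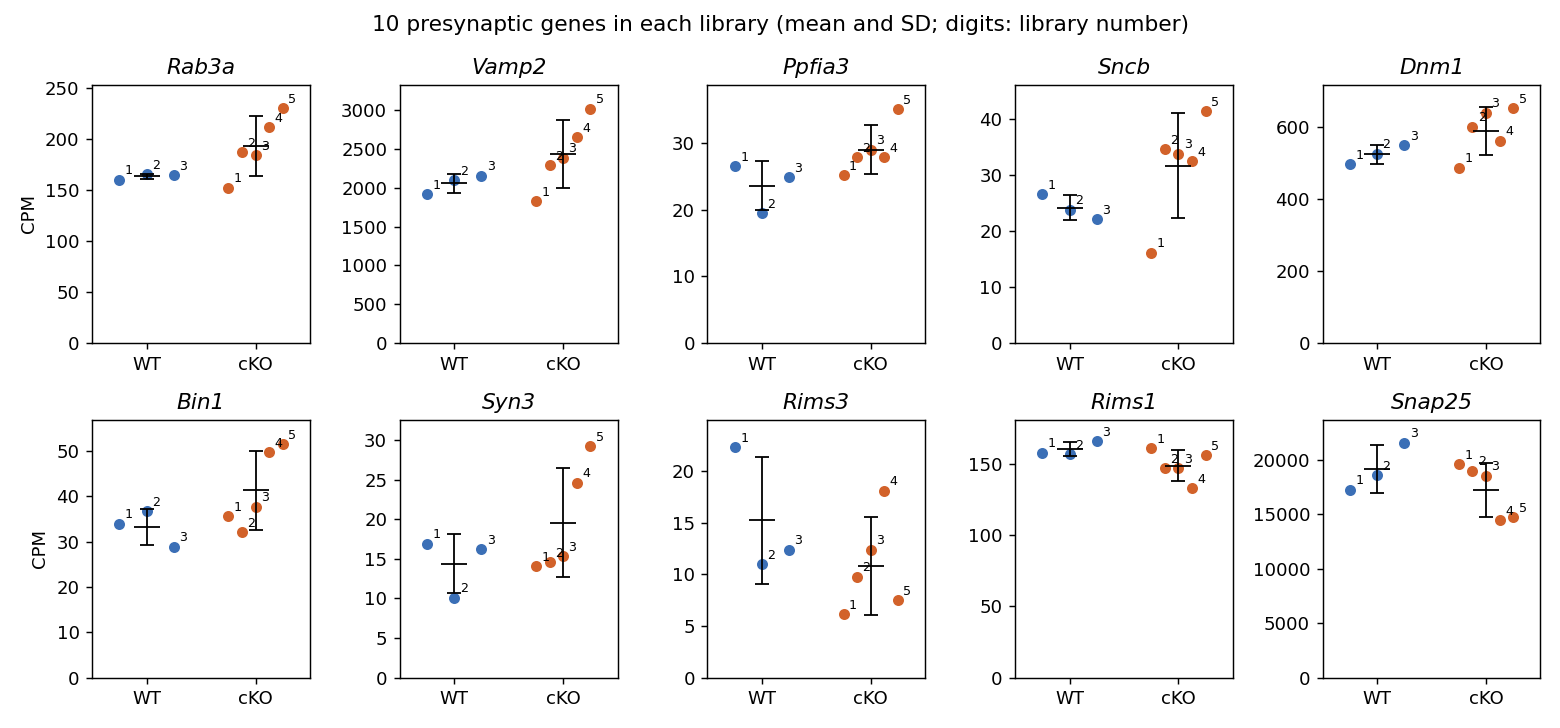
CPM (y axis, from 0) of 10 genes in each library, with digits for the library number and the group mean and SD in black. For Rab3a, Vamp2, Sncb and Dnm1, cKO 1 lies below WT and the other 4 cKO libraries lie above it, while Snap25 is lowest in cKO 4 and 5.

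At the active zone, 4 of 10 estimates lay above 0 and the median was -0.02. Ppfia3, which encodes liprin-alpha-3 (ENSMUSG00000003863, chromosome 7, 45339122 to 45367019), had 26.5, 19.5 and 24.9 CPM in WT 1 to 3, and 25.2, 27.9, 29.0, 27.9 and 35.1 CPM in cKO 1 to 5. All cKO libraries but cKO 1 lay above WT. The estimate for Ppfia3 was 0.30 on the log2 scale (SE 0.16; edgeR adjusted p 0.631), and the exact permutation p, two-sided, was 0.0714. It was 0.04 after a correction for GC content and length. GC content was taken from the longest annotated transcript of each gene. For Ppfia3 it was 60.9%, against a median of 48.5% among abundant genes. Across 9047 abundant genes of these libraries, fold change and GC content were related with a Spearman rho of 0.31, and the part of that trend in the members' estimates was not tested beyond the corrected values. Ppfia2, which encodes liprin-alpha-2, ranged from 490 to 577 CPM in WT and from 440 to 595 CPM in cKO. Exons of Acss3 on the opposite strand cover 22.3% of its merged exons.

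Rims3 had the lowest estimate of all members (ENSMUSG00000032890, chromosome 4, 120854816 to 120896579). It encodes a short RIM protein. Rims3 had 22.3, 11.0 and 12.4 CPM in WT 1 to 3, and 6.15, 9.77, 12.4, 18.1 and 7.52 CPM in cKO 1 to 5. WT 1 was the highest library, cKO 4 was next, and cKO 1, 2 and 5 lay below WT. The estimate for Rims3 was -0.50 on the log2 scale (SE 0.35; edgeR adjusted p 0.737), -0.11 without WT 1 and -0.76 without cKO 4.

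Rims1, which encodes the main RIM scaffold, had 158, 157 and 166 CPM in WT 1 to 3, and 161, 147, 147, 133 and 156 CPM in cKO 1 to 5. cKO 1 lay inside the WT range and the other 4 cKO libraries lay below it, by little in cKO 5 (log2 fold change -0.11, SE 0.09). Rims2 ranged from 37.9 to 43.2 CPM in WT and from 32.4 to 51.4 CPM in cKO. Rimbp2, which encodes a RIM-binding protein that links RIM to calcium channels, ranged from 25.1 to 34.5 CPM in WT and from 22.1 to 33.7 CPM in cKO (-0.20, SE 0.17).

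Bsn and Pclo encode Bassoon and Piccolo, the largest scaffolds of the active zone. Bsn ranged from 403 to 463 CPM in WT and from 414 to 530 CPM in cKO (log2 fold change 0.14, SE 0.11), and the estimate was 0.04 without cKO 4 and 5 and -0.12 after the GC and length correction. Pclo ranged from 402 to 437 CPM in WT and from 401 to 477 CPM in cKO. Of the ELKS genes, Erc2 ranged from 315 to 400 CPM in WT and from 268 to 391 CPM in cKO (-0.11, SE 0.14; 0.02 without cKO 4 and 5), and Erc1 from 109 to 129 and from 113 to 143 CPM. An antisense gene covers 11.8% of the merged exons of Erc1.

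The synapsins and SV2 genes had a median log2 fold change of 0.04. Syn1 encodes synapsin I, which tethers vesicles (ENSMUSG00000037217, chromosome X, 20860511 to 20921004). Syn1 had 2594, 2634 and 3010 CPM in WT 1 to 3, and 2111, 3149, 2809, 2189 and 2217 CPM in cKO 1 to 5. cKO 1, 4 and 5 lay below WT and cKO 2 above it, and the estimate was -0.14 (SE 0.13; edgeR adjusted p 0.825), or -0.04 without cKO 4 and 5. Syn2 had 390, 369 and 399 CPM in WT, and 410, 432, 412, 327 and 294 CPM in cKO 1 to 5. Its cKO values thus lay above WT in cKO 1 to 3 and below it in cKO 4 and 5.

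Syn3 had the highest estimate of all members (ENSMUSG00000059602, chromosome 10, 86055125 to 86498896). Syn3 had 16.9, 10.1 and 16.2 CPM in WT 1 to 3, and 14.1, 14.6, 15.3, 24.6 and 29.2 CPM in cKO 1 to 5. cKO 4 and 5 lay above WT and the other cKO libraries inside the WT range. The estimate for Syn3 was 0.44 on the log2 scale (SE 0.29; edgeR adjusted p 0.707) and 0.02 without cKO 4 and 5. Exons of Timp3 on the opposite strand cover 14.1% of its merged exons. Timp3 itself had 1.95 to 3.75 CPM in WT and reached 12.5 CPM in cKO 4, and its part in the Syn3 count was not tested. Sv2a, which encodes the vesicle protein bound by levetiracetam, ranged from 53.1 to 65.0 CPM in WT and from 53.6 to 66.1 CPM in cKO. Sv2b ranged from 882 to 943 CPM in WT and from 832 to 1213 CPM in cKO.

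Of the endocytosis genes, Dnm1 encodes the neuronal dynamin that cuts vesicles from the membrane (ENSMUSG00000026825, chromosome 2, 32308471 to 32353338). Dnm1 had 498, 527 and 551 CPM in WT 1 to 3, and 488, 602, 641, 563 and 654 CPM in cKO 1 to 5. Once more cKO 1 lay below WT and the other 4 cKO libraries above. The estimate for Dnm1 was 0.17 (SE 0.10; edgeR adjusted p 0.694), and -0.01 after the GC and length correction. Dnm3 ranged from 171 to 179 CPM in WT and had 159, 199, 149, 152 and 161 CPM in cKO 1 to 5, so that 4 cKO libraries lay below WT and cKO 2 above.

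Bin1, a relative of amphiphysin that oligodendrocytes also express, had the smallest p of this group. Bin1 had 34.0, 36.7 and 28.9 CPM in WT 1 to 3, and 35.7, 32.1, 37.7, 49.8 and 51.6 CPM in cKO 1 to 5. cKO 4 and 5 were the highest libraries, and cKO 1 and 2 lay inside the WT range. The estimate for Bin1 was 0.32 on the log2 scale (SE 0.18; edgeR adjusted p 0.653) and 0.08 without cKO 4 and 5. Amph, the amphiphysin gene, ranged from 216 to 229 CPM in WT and from 175 to 248 CPM in cKO. Synj1 ranged from 1428 to 1560 CPM in WT and from 1392 to 1600 CPM in cKO. Sh3gl2, which encodes endophilin-A1, ranged from 998 to 1327 CPM in WT and from 866 to 1222 CPM in cKO.

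Summed markers of oligodendrocytes and of their precursors were higher in every cKO library than in any WT library, although few single markers differed. The summed level of 10 oligodendrocyte markers was 71.4 to 75.8 CPM in WT and 83.8 to 107 CPM in cKO, with estimates above 0 for all 10 and Opalin at 0 in at least 1 library. Of the 10, 3 had an unadjusted edgeR p under 0.05 and 0 were called after adjustment. The sum of 6 precursor markers was 3.32 to 4.23 CPM in WT and 5.72 to 9.10 CPM in cKO, with Olig2 at 0 in at least 1 library. Of these 6, 5 had estimates above 0, 2 had an unadjusted edgeR p under 0.05, 0 were called and Sox10 was at -0.22. With the oligodendrocyte sum as a covariate, the estimate for Bin1 was 0.34 (unadjusted edgeR p 0.362). That sum separates the groups completely, so its part in the estimate cannot be told apart from genotype. The part of the precursor sum was not tested. In such pools, fewer cells of a type and less RNA per cell cannot be told apart.

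Values of the members varied more among the cKO libraries than among the WT libraries. The SD of log2 CPM was larger in cKO for 36 of 42 members (85.7%), as it was for 80.2% of abundant genes. cKO 4 and 5 were the 2 lowest of 8 libraries for Snap25, Nsf, Napb, Cplx1, Rph3a, Erc2, Ppfia2, Syn2 and Sh3gl2, which are 21.4% of the members, against 11.1% of abundant genes. They were the 2 highest for Vamp2, Unc13a, Doc2b, Rab3a, Rab3c, Bsn, Pclo, Syn3 and Bin1, again 21.4%, against 14.7%. The genes of the vesicle SNARE and of its partner SNAP-25 were thus at opposite ends in cKO 4 and 5. Some pairs of a WT and a cKO library departed more from abundant genes. cKO 2 and WT 3 were the 2 highest for 9 members (21.4%, against 2.36% of abundant genes). cKO 1 and WT 1 were the 2 lowest for 6 members (14.3%, against 2.90%).

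Several marker sums stood apart in cKO 4 and 5. The 8 glutamatergic markers summed to 10242 and 12593 CPM in cKO 4 and 5, and to 7839 to 8964 CPM in the other libraries. Camk2a carried most of that sum, with 7948 and 10057 CPM in cKO 4 and 5 and 5930 to 6850 CPM elsewhere. Only 4 of the 8 markers had estimates above 0, and Slc17a6, Neurod2, Neurod6 and Tbr1 had estimates below 0. The 8 GABAergic markers summed to 153 and 170 CPM there and to 189 to 258 CPM elsewhere, and no marker of either list was at 0. Vessel markers summed to 29.0 and 22.4 CPM there and to 54.3 to 86.1 CPM elsewhere, with Cldn5, Cdh5 and Tek at 0 in at least 1 library. Nearly all of that sum was Rgs5, at 27.2 and 18.3 CPM there and 52.9 to 82.4 CPM elsewhere, and the other vessel markers tested each averaged under 1 CPM. CCK interneuron markers summed to 1054 and 885 CPM in cKO 4 and 5 and to 615 to 847 CPM elsewhere. Most of that sum was Cck, at 837 and 691 CPM there and 415 to 631 CPM elsewhere. Of these 8 markers, 5 had estimates above 0, and Vip, Htr3a and Slc17a8 had estimates below 0. Slc17a8 was lower in cKO 4 and 5, at 0.259 and 0.598 CPM, than in the other libraries, at 2.09 to 3.50 CPM. Microglia markers, 5 of them with a 0, summed to 2.68 and 2.01 CPM there and to 4.06 to 6.29 CPM elsewhere. Astrocyte markers were not set apart, at 377 and 338 CPM there and 331 to 508 CPM elsewhere. The part of these sums in the members' values was not tested.

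**Figure D4:**
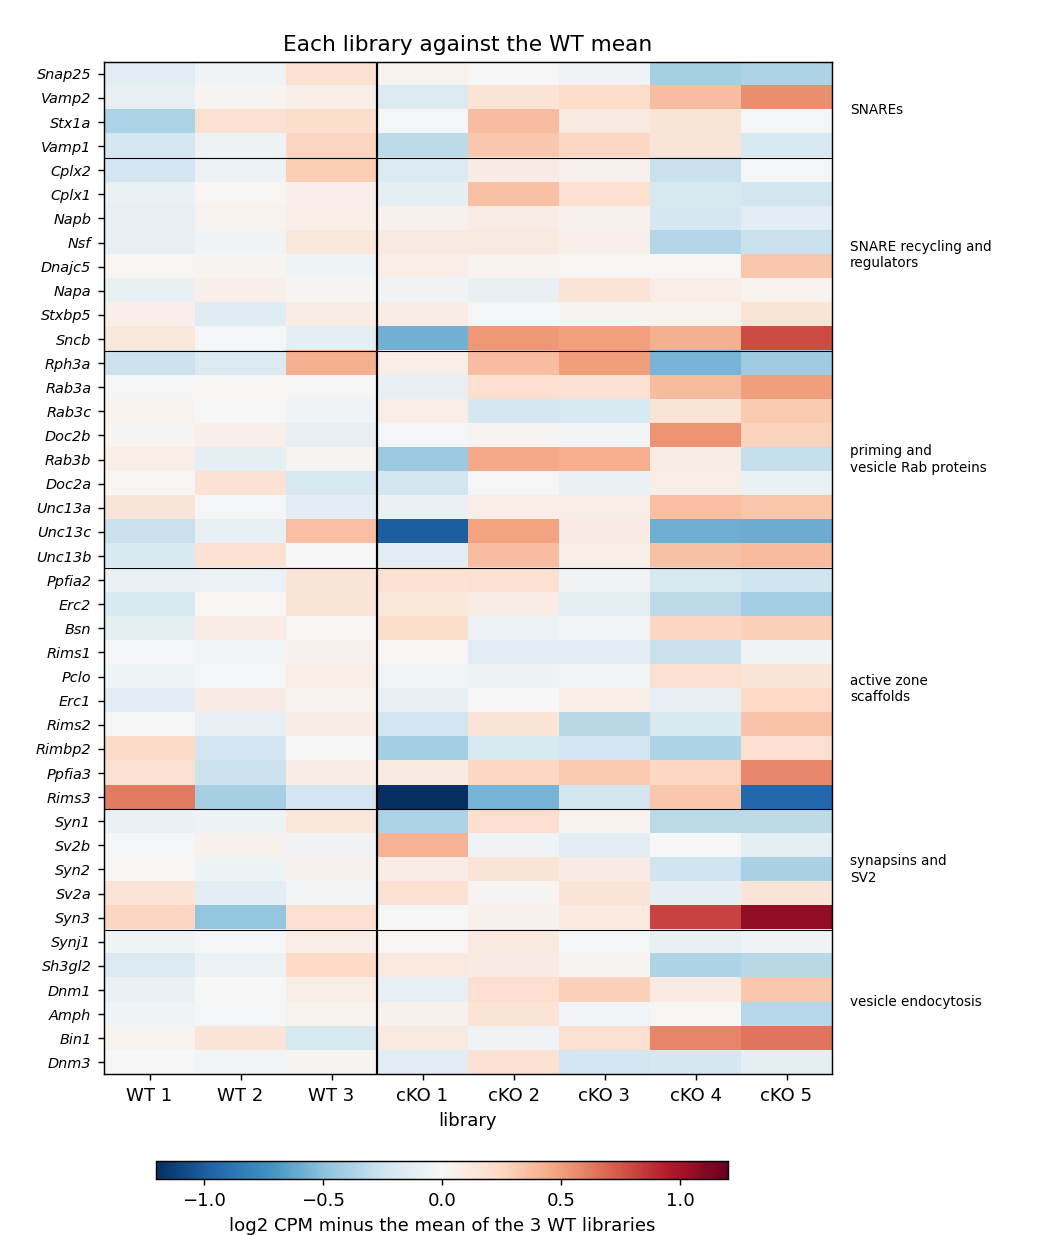
Log2 CPM of each gene in each library minus the mean of the 3 WT libraries (colour), with WT left and cKO right of the black line. cKO 4 and cKO 5 are both low for Snap25, Nsf, Erc2 and Sh3gl2 and both high for Vamp2, Rab3a, Syn3 and Bin1, and cKO 1 is low for Sncb, Unc13c and Rims3.

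Leaving out single cKO libraries moved some members past an unadjusted threshold. Without cKO 1, 4 members had an unadjusted edgeR p under 0.05, all higher, with 6.59% of all genes higher at that threshold: Sncb (0.00311), Vamp2 (0.00910), Rab3a (0.0100) and Dnm1 (0.0201). In those 7 libraries these and Ppfia3 lay higher without overlap, as did 6.66% of all genes, and Rims1 lay lower, as did 6.80%. Without cKO 2, Bin1 was higher (0.40; unadjusted edgeR p 0.0436), along with 5.31% of all genes. Without cKO 4, Rims3 was lower (unadjusted edgeR p 0.0324), along with 3.64%. Without cKO 4 and 5, Rims3 was lower (-0.69; unadjusted edgeR p 0.0459), along with 4.94%, and Syn2 lay higher without overlap, along with 7.19%. None of these passed after adjustment.

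The balance between paralogs was compared within libraries for 14 families. In all 14 the log2 ratio of 2 members overlapped between WT and cKO. By exact permutation tests, two-sided, with 0.0179 as the smallest p possible, the lowest p was 0.143 for Doc2a to Doc2b, with a difference of -0.23 in cKO minus WT. Dnm1 to Dnm3 differed by 0.26 (exact p 0.179), Ppfia2 to Ppfia3 by -0.32 (exact p 0.214), Bsn to Pclo by 0.09 (exact p 0.232) and Amph to Bin1 by -0.33 (exact p 0.304). Adjusted over the 14 families, every p was 0.750.

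By length-scaled level, 1 paralog led clearly in most families in WT. Vamp2 made up 98.7% ± 0.147 (SD, n = 3) of the Vamp1 and Vamp2 level, Syn1 93.7% ± 0.382 of the synapsins and Dnm1 93.3% ± 0.283 of the dynamin pair. Ppfia2 made up 94.1% of the liprin pair, Sv2b 89.6% of the SV2 pair, Napb 88.8% of the Napa and Napb level and Doc2b 88.6% of the Doc2 pair. Amph stood at 85.9%, Erc2 at 83.2% and Unc13a at 74.8%, and Rims1 ranged from 76.2 to 81.0%. Cplx1 and Cplx2 were closer to even, at 46.6 and 53.4% ± 3.64, as were Bsn and Pclo at 59.4 and 40.6% ± 1.49. In the Rab3 family the order depended on the scale. Rab3a and Rab3c made up 50.4 and 43.9% of the length-scaled level, but Rab3c, with merged exons of 12049 bases against 2226 for Rab3a, took 80.0% of the family's counts.

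**Figure D5:**
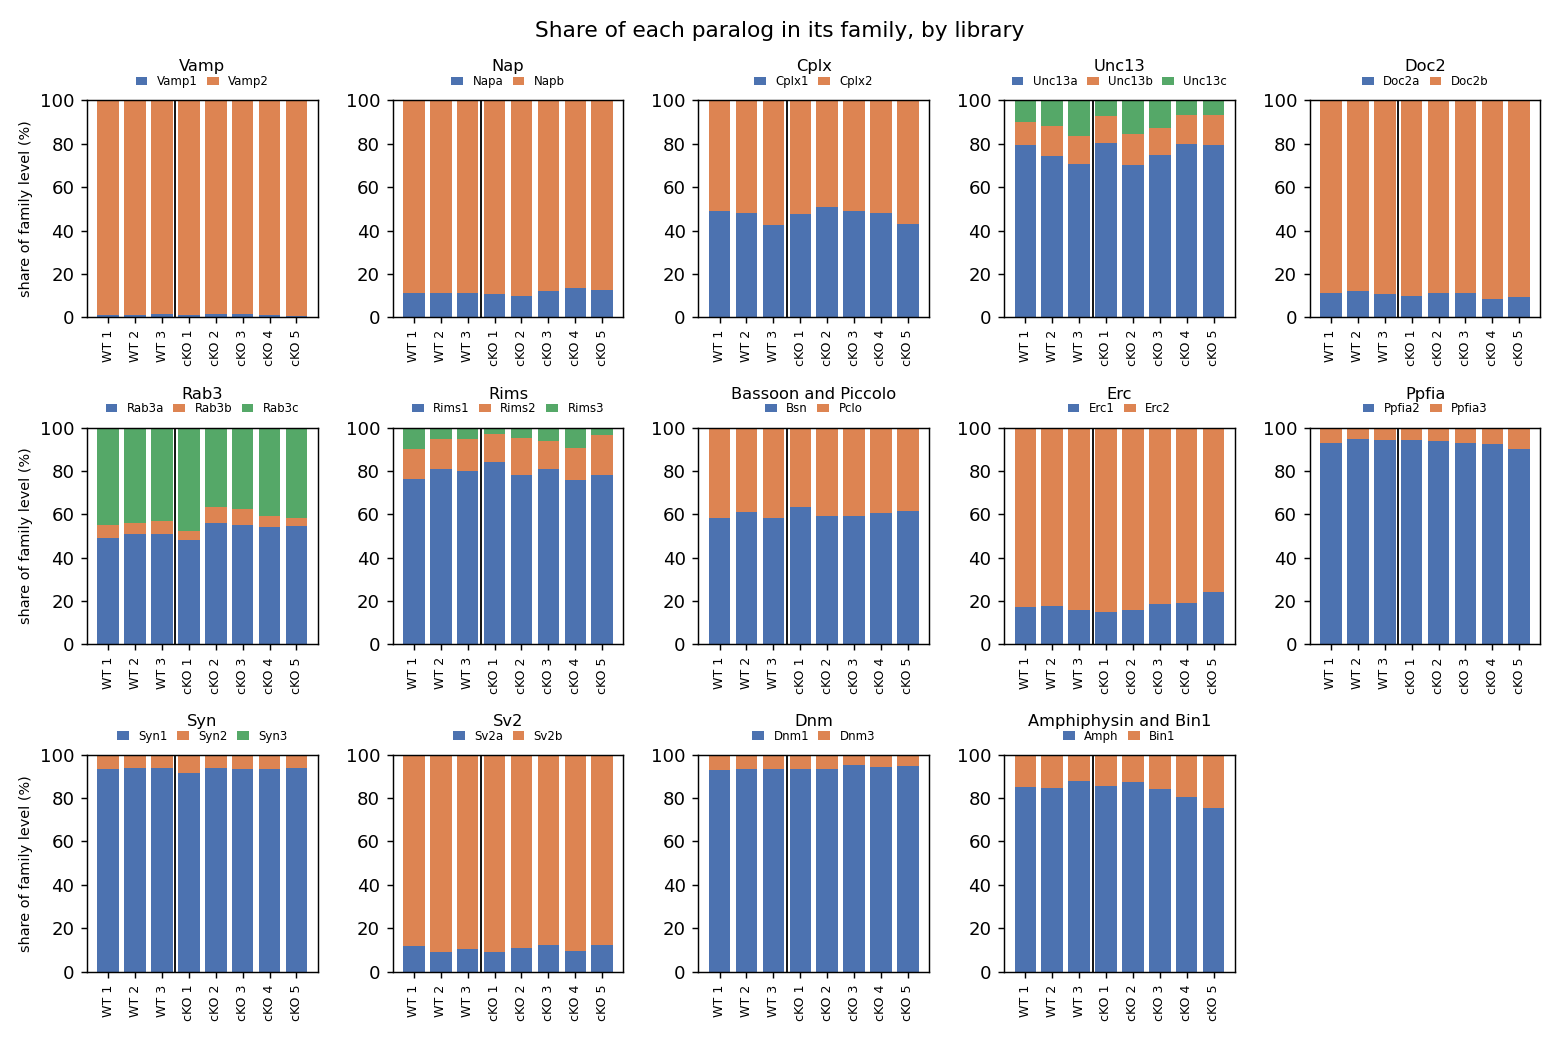
Share of each paralog (percent of the family's length-scaled level, stacked to 100) in each library for 14 families, with WT left and cKO right of the black line. Vamp2 stays between 98.6 and 99.2% in all 8 libraries, and the Bin1 share is largest in cKO 4 and 5, at 19.7 and 24.4%.

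Other presynaptic genes were followed as a list of 95, of which 92 were tested. After adjustment, edgeR and limma-voom called 0 of them, and DESeq2 called 1, Slc17a7, of the 75 to which it gave an adjusted p. At an unadjusted p under 0.05, 8 were higher (8.70%, against 5.02% of all genes) and 3 lower (3.26%, against 3.70%). Groups did not overlap for 4 that were higher (4.35%, against 3.38% of all genes) and 4 that were lower (4.35%, against 3.82%). Among vesicle genes the share was 4 higher and 1 lower of 18, among endocytosis genes 2 and 1 of 32, among SNARE and fusion genes 1 and 1 of 26, and among active-zone genes 1 and 0 of 16. Slc17a7, the vesicular glutamate transporter VGLUT1, ranged from 333 to 365 CPM in WT and from 439 to 548 CPM in cKO, without overlap (adjusted p 0.470 by edgeR, 0.00604 by DESeq2 and 0.0738 by limma-voom). Atp6v0c and Atp6v0a1 encode membrane subunits of the vesicle proton pump. Atp6v0c ranged from 452 to 472 CPM in WT and from 503 to 580 CPM in cKO, and Atp6v0a1 from 131 to 138 and from 142 to 231 CPM, both without overlap. Ap2a1, a subunit of the clathrin adaptor AP-2, ranged from 12.3 to 13.8 CPM in WT and from 14.9 to 20.4 CPM in cKO, also without overlap. In the other direction, Clta, Ppfibp1, Cplx3 and Atp6v1e1 were lower in cKO without overlap. Atp6v1e1 ranged from 150 to 155 CPM in WT and from 137 to 145 CPM in cKO.

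The remaining 4 of the 8 with the smallest p overlapped between genotypes. Vamp4, an endosomal SNARE, ranged from 179 to 207 CPM in WT and from 151 to 179 CPM in cKO (log2 fold change -0.24, SE 0.10). Rab5a, a GTPase of early endosomes, ranged from 45.9 to 61.5 CPM in WT and from 35.5 to 47.1 CPM in cKO (-0.34, SE 0.14). Ston2, an endocytic adaptor, had a mean of 3.31 CPM in WT and 5.90 CPM in cKO (0.83, SE 0.35). Snap23, a relative of SNAP-25 found in many tissues, had means of 2.34 and 6.77 CPM (1.52, SE 0.66), with 15.1 CPM in the library labelled cKO 5, without which the estimate was 0.98.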

How the data were processed

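RNA from TRAP pull-downs of 3 WT and 5 cKO pools was sequenced. The authors deposited raw counts per Ensembl gene; per the submitters' processing notes, STAR 2.5.3a, HTSeq and genome build mm10 were used. The annotation release, strandedness and filters are not given in the sources used here. Symbols, positions, merged exon lengths and the GC content of the longest transcript came from GENCODE vM21 (same build), which gave 37607 genes a symbol.

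Tests used edgeR 4.0.16 in R 4.3.3 (TMM scaling, filterByExpr, robust quasi-likelihood, two-sided); an adjusted p under 0.05 was a call. Single values were compared by exact permutation over 56 splits. The 20 other settings were other scalings and filters, DESeq2 1.42.0, limma-voom (limma 3.58.1), libraries left out, a replicate block, GC and length offsets and an oligodendrocyte covariate. The fit was tested on simulated data. By rule every member is named, with CPM per library for any with an unadjusted p under 0.05 (there were 0) and for the smallest p of each role; other genes shown per library were chosen after their values were seen. Of other presynaptic genes, the 8 with the smallest p are named, as are those without overlap. Members and lists were chosen with earlier results of these data known. Figures used Python 3.11.15 and matplotlib 3.10.9.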

Additional observations from a re-analysis of the deposited data

Results flagged for a closer look

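Among 57 checks for a cKO library set apart from its group, 4 were positive, and chance alone gives about 2.85. Dnajc5 had 426 CPM in the library labelled cKO 5 and 345 to 363 CPM in the other cKO libraries. Dnm3 had 199 CPM in cKO 2 and 149 to 161 CPM in the others. Sv2b had 1213 CPM in cKO 1 and 832 to 907 CPM in the others. Hltf had 11.4 CPM in the library labelled cKO 5 and 2.83 to 5.10 CPM in the others.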

How the results depend on the processing

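No member was called under any of the 20 other settings. Over all 42 members and these settings, 713 of 840 estimates kept their sign and 127 did not; the cause was not tested. The changes fell on 22 of the 23 members under 0.1 in size (107 estimates) and 9 of the 19 others (20 estimates). limma-voom left 1 member higher at an unadjusted p under 0.05, where 6.22% of all genes were higher. With single libraries left out, 0 to 4 members were higher and 0 to 1 lower at that threshold. Of all genes, 2.66 to 6.59% were then higher and 1.99 to 5.10% lower. Without overlap, 0 to 5 members lay higher and 0 to 1 lower, against 4.52 to 6.66% and 4.68 to 7.03% of all genes. The median of the members was -0.03 to 0.06 and Stx1a -0.06 to 0.20. Without cKO 4 and 5, 1 member was lower at that threshold, against 4.94% of all genes. In those libraries 1 member lay higher without overlap, against 7.19% of all genes. Doc2b was -0.01 and Erc2 0.02. With the GC and length correction, 2 members lay lower without overlap, against 3.89% of all genes. The median of the members was -0.02, Stx1a -0.03, Unc13a -0.01, Bsn -0.12 and Dnm1 -0.01. The setting with that correction and without cKO 4 and 5 was chosen after seeing the data. In it 2 members were lower at that threshold, against 5.42% of all genes. Without overlap, 1 member lay higher and 4 lower, against 7.67% and 8.58% of all genes. Unc13a was -0.06, Doc2b -0.05, Bsn -0.09 and Erc2 0.03. The oligodendrocyte covariate separates the groups completely and cannot be told apart from genotype. With it, 1 member was higher at that threshold, against 4.49% of all genes. The median of the members was 0.11, Unc13c 0.46, Rimbp2 0.22, Syn1 0.15 and Hltf 0.12.

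Same-numbered WT and cKO libraries did not deviate together (correlations -0.08, 0.02 and 0.04). The relation between pools is not given, and these correlations alone cannot decide whether the numbers pair them. With a replicate block over the 6 libraries that share numbers, 1 member was higher at that threshold, against 3.94% of all genes. Called members were 0, Doc2b was -0.01 and Erc2 0.03. With the block and the GC and length correction, 1 member lay higher without overlap and 4 lower. Of all genes, 7.67% lay higher and 8.58% lower. Unc13a was -0.05, Doc2b -0.06, Bsn -0.10 and Erc2 0.04.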

Other observations

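Over the 42 genes, the library labelled cKO 5 held the highest of the 8 values for 14 genes and cKO 2 for 12, while cKO 1 held the lowest for 11 and cKO 4 for 8. Rims3 and Unc13c varied most between cKO libraries, with SDs of 0.61 and 0.60 on the log2 scale, followed by Sncb (0.52) and Syn3 (0.49). Between WT libraries the SDs were 0.55 for Rims3, 0.32 for Unc13c, 0.13 for Sncb and 0.41 for Syn3.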
